A study of Mus musculus with 4 samples.

Results

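The 10 genes whose proteins are described as readers of N6-methyladenosine (m6A) were followed through RNA immunoprecipitation and sequencing (RIP-seq) of YTHDF1. The cells were Hepa 1-6, a line from a mouse hepatocellular carcinoma. The genes were taken by Ensembl ID from a given list, out of 53465 IDs in the count table, and all 10 passed the filter that left 12920 genes for comparison. The cells carried either a control guide (sgcontrol, genotype given as WT) or a guide against Usp5, a ubiquitin-specific protease (sgUsp5, genotype given as Usp5 Knockdown). From each, 1 library was made from the lysate before precipitation (input, no antibody) and 1 from RNA precipitated with an anti-YTHDF1 antibody (RIP). This gave 4 groups of 1 library each, from 1 lysate per guide, and the labels do not say whether the cells were a pool or a single clone. The libraries held 30804293 (control input), 31751069 (Usp5 input), 33941019 (control RIP) and 29898171 (Usp5 RIP) counts. The 10 genes together took 0.254%, 0.215%, 0.161% and 0.159% of these counts, in the same order. Usp5 itself and liver marker genes were not analysed here, since rows other than the 10 could not be named, so the guide and the cell type were not checked against the data. No precipitate with a control antibody was used here, and recovery through the beads alone was not tested.

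m6A is the most common internal modification of mRNA and acts through proteins that bind it. The YTHDF proteins hold it in a YTH domain in the cytoplasm, where YTHDF1 is best known for promoting translation and YTHDF2 for recruiting the CCR4-NOT deadenylase to degrade the mRNA, with YTHDF3 acting beside both. YTHDC1 is the nuclear member of the YTH proteins and YTHDC2 is an RNA helicase needed in meiosis. The IGF2BP proteins, oncofetal RNA-binding proteins that are frequently raised in liver cancer, stabilise mRNAs, while HNRNPA2B1 and FMRP are RNA-binding proteins whose link to m6A is less direct.

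Of the 10 transcripts, Ythdf1 was higher in the YTHDF1 precipitate than in the input, and Ythdc1, Igf2bp2, Igf2bp3, Hnrnpa2b1 and Fmr1 were lower. These 6 passed the edgeR quasi-likelihood test for RIP against input in both guides together, at an adjusted p under 0.05, and Ythdf2, Ythdf3, Igf2bp1 and Ythdc2 did not. In that test 1 of 10 members was called higher, beside 10.2% of all genes tested and 18.9% of the 5126 genes with a mean log2 CPM of at least 5. All 10 members belong to those more abundant genes. Lower calls were made for 5 of 10 members, beside 11.3% of all genes and 23.0% of the abundant ones. The median log2 ratio of the members was -0.70, that of all genes tested 0.077 and that of the abundant genes -0.035. With library totals in place of TMM factors, the higher share of all genes called went from 47.5% to 63.5%. The test rests on 4 libraries of 2 lysates with 1 residual degree of freedom. Its error is the change of enrichment between the guides, with a dispersion estimated with the help of all genes. Its p-values do not cover the spread between cultures.

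**Figure D1:**
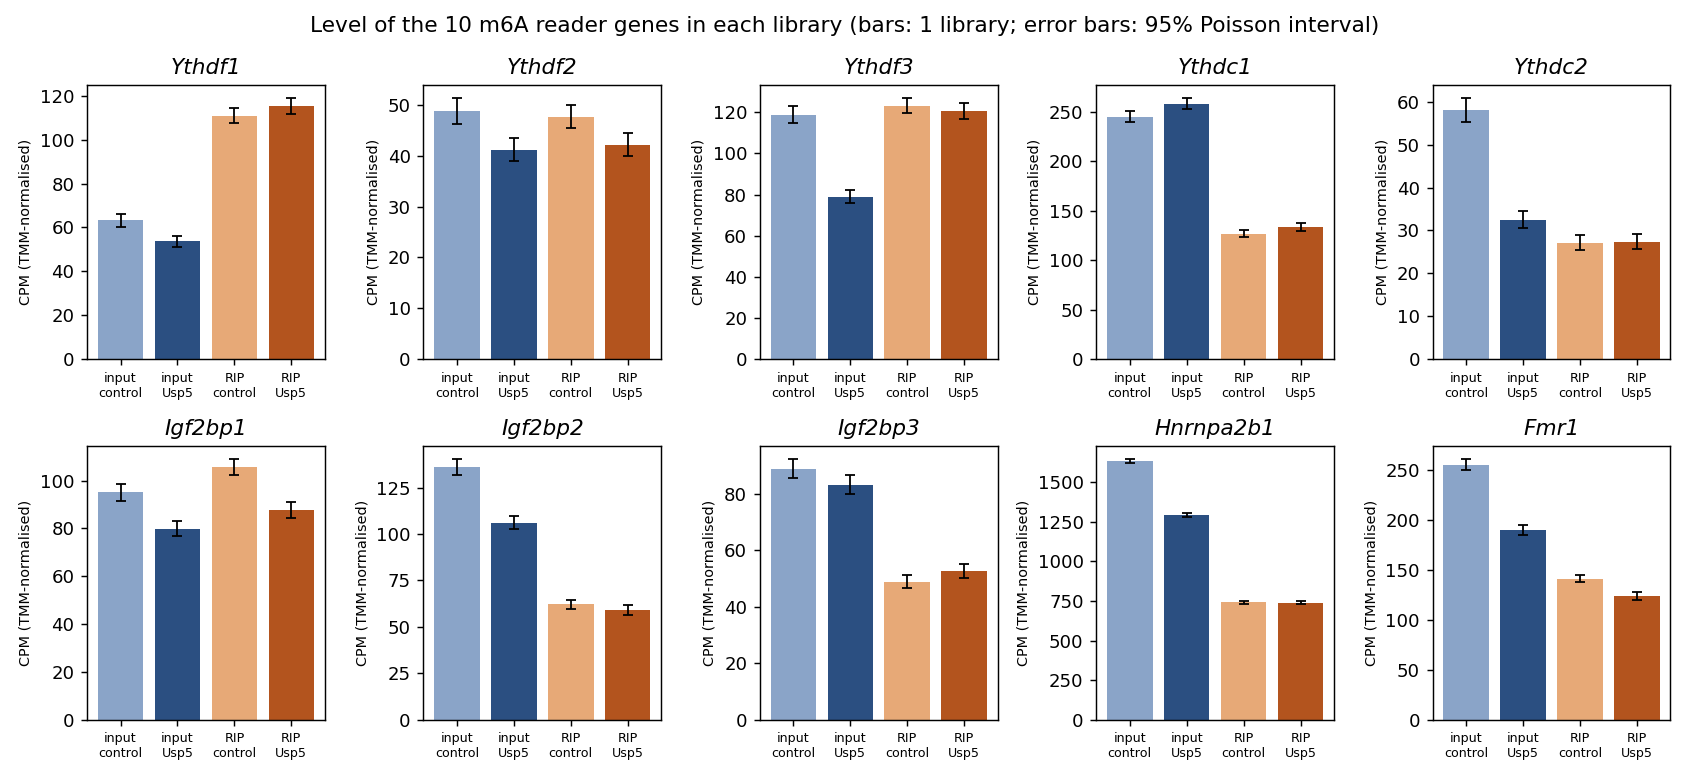
Level of each of the 10 genes as read counts scaled to library size (CPM) on TMM-normalised library sizes, in the control input, Usp5 input, control RIP and Usp5 RIP. Each bar is 1 library, error bars are exact 95% Poisson intervals for counting error, and each panel has its own axis starting at 0. Ythdf1 stands higher in both RIP libraries (110.9 and 115.2 CPM) than in both inputs (63.3 and 53.6 CPM), while Hnrnpa2b1 stands lower in both RIP libraries (741.5 and 738.6 CPM, against 1634.1 and 1295.2 CPM).

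Ythdf1 (ENSMUSG00000038848, chr2:180904377-180920936 on GRCm38), which encodes the precipitated protein, was counted with 1806 reads in the control input, 1649 in the Usp5 input, 3956 in the control RIP and 3651 in the Usp5 RIP. On the normalised scale these were 63.3, 53.6, 110.9 and 115.2 CPM, so both precipitates lay above both inputs. How many of all genes separate by fraction in this way was not counted, here or for the members below. RIP over input was 1.75-fold in control cells (log2 ratio 0.81, 95% counting interval 0.73 to 0.89) and 2.15-fold in Usp5 guide cells (1.10, interval 1.02 to 1.19). Over both guides the log2 ratio was 0.96, or 1.94-fold, with an adjusted p of 0.00601 (edgeR). It was higher in both of the 2 guides, and the adjusted p ranged from 0.000575 to 0.0142 over the 8 settings run. These settings include DESeq2's Wald test in place of edgeR. Ythdf1 was the single member that reached 2-fold with an interval above no difference in Usp5 guide cells, where the same rule took 15.9% of all genes and 6.48% of the abundant ones in the higher direction. Among the 1620 genes whose mean log2 CPM lay within 0.5 of its own, the middle 95% of ratios ran from -1.54 to 1.48 in control cells and from -1.36 to 1.28 in Usp5 guide cells. Ythdf1 stood at the 85.4th and the 94.8th percentile of these genes, inside both ranges.

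The paralogues of Ythdf1, Ythdf2 and Ythdf3, did not pass the test over both guides. Ythdf2 (ENSMUSG00000040025, chr4:132184916-132212256) had 1391 and 1267 reads in the control and Usp5 inputs and 1701 and 1337 in the control and Usp5 RIP libraries. Its levels of 48.7, 41.2, 47.7 and 42.2 CPM followed the guide and not the fraction. The log2 ratios of RIP over input were -0.032 (interval -0.13 to 0.071) in control cells and 0.035 (-0.077 to 0.15) in Usp5 guide cells. Both intervals included no difference, and the sign of the first turned to 0.15 with library totals in place of TMM factors. Over both guides the log2 ratio was 0.0015 with an adjusted p of 0.997 (edgeR, 0.683 to 0.999 over the settings). These counting intervals exclude a 2-fold difference in either direction.

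Ythdf3 (ENSMUSG00000047213, chr3:16183148-16217037) had 3390 reads in the control input, 2430 in the Usp5 input, 4397 in the control RIP and 3822 in the Usp5 RIP, or 118.8, 79.0, 123.3 and 120.6 CPM. The Usp5 input was the low library, and the other three lay within 5 CPM of each other. RIP over input was accordingly near no difference in control cells (log2 ratio 0.053, interval -0.012 to 0.12) and 1.53-fold in Usp5 guide cells (0.61, interval 0.54 to 0.68). With library totals the control ratio was 0.24, with an interval above no difference (0.17 to 0.30). Over both guides the log2 ratio of 0.33 did not pass (adjusted p = 0.267, edgeR). Among genes of like abundance Ythdf3 stood at the 56.1th percentile in control cells and the 83.5th in Usp5 guide cells. Widened by the scatter between guides at this abundance, its interval included 0 in control cells (-0.45 to 0.55). In Usp5 guide cells it lay just above 0 (0.033 to 1.19). So widened, 2 of 10 members had intervals above 0 in Usp5 guide cells and 5 of 10 below it. This widening was chosen after seeing the data, and the share of all genes with such intervals was not counted.

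**Figure D2:**
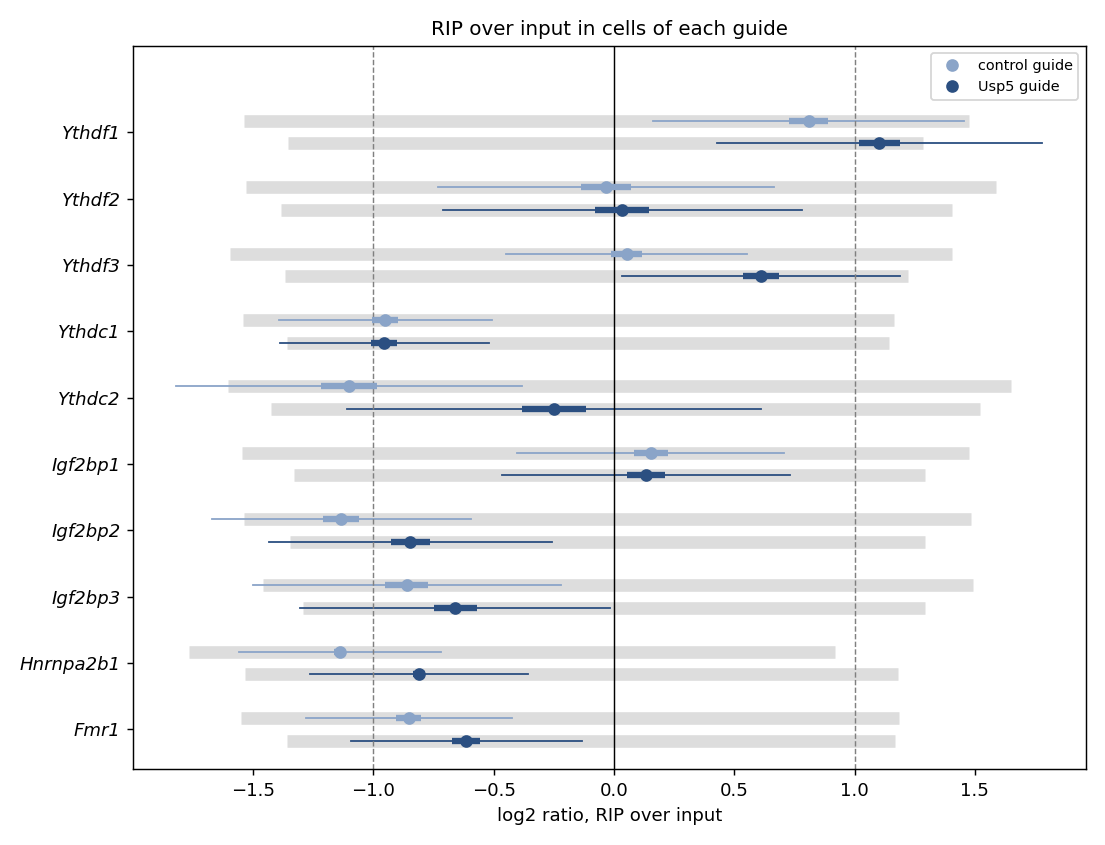
Log2 ratio of RIP over input for each gene in control guide cells (light) and Usp5 guide cells (dark). Points are ratios of 2 libraries, thick lines 95% counting intervals, thin lines the same intervals widened by the scatter between guides at that abundance, grey bars the middle 95% of genes of like abundance, and dashed lines mark 2-fold. Ythdf1 lies to the right of 0 in both guides, and Ythdc1, Igf2bp2, Igf2bp3, Hnrnpa2b1 and Fmr1 lie to the left in both. Ythdf3 and Igf2bp1 also lie to the right in both, and Ythdc2 to the left in both, but did not pass the test over both guides.

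Both YTHDC transcripts had log2 ratios below 0 in each guide. Ythdc1 passed the test and Ythdc2 did not. Ythdc1 (ENSMUSG00000035851, chr5:86803980-86836659) had 6996 and 7946 reads in the control and Usp5 inputs and 4528 and 4220 in the RIP libraries, or 245.2, 258.3, 126.9 and 133.2 CPM. The inputs lay close together, as did the precipitates, which lay below the inputs. The log2 ratios of -0.95 (interval -1.004 to -0.90) and -0.96 (-1.01 to -0.90) in control and Usp5 guide cells, or 1.93-fold and 1.94-fold lower, were nearly equal and just short of 2-fold. Over both guides Ythdc1 fell by 0.95 on the log2 scale (adjusted p = 0.00157, edgeR). Over the settings its adjusted p ran from 6.58e-07 (DESeq2's Wald test) to 0.00725 (edgeR).

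Ythdc2 (ENSMUSG00000034653, chr18:44827730-44889720) had 1656 reads in the control input, 1000 in the Usp5 input, 966 in the control RIP and 867 in the Usp5 RIP, or 58.0, 32.5, 27.1 and 27.4 CPM. The control input was the high library, and the Usp5 input lay much nearer to the precipitates than to it. RIP over input was 2.14-fold lower in control cells (log2 ratio -1.10, interval -1.22 to -0.98) and 1.19-fold lower in Usp5 guide cells (-0.25, interval -0.38 to -0.12). With library totals the ratio in Usp5 guide cells was -0.12, with an interval that included no difference (-0.25 to 0.014). The log2 ratio over both guides was -0.68, with an adjusted p of 0.127 (edgeR), which did not pass.

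The IGF2BP genes were split. Igf2bp1 (ENSMUSG00000013415, chr11:95957163-96005944) had 2711, 2453, 3770 and 2774 reads in the control input, Usp5 input, control RIP and Usp5 RIP, or 95, 79.7, 105.7 and 87.5 CPM. Within each guide the precipitate was slightly above the input, with log2 ratios of 0.15 (interval 0.082 to 0.23) and 0.13 (0.056 to 0.21). The difference did not pass over both guides (log2 ratio 0.14, adjusted p = 0.639, edgeR). A microRNA gene, Mir3063, lies inside the span of Igf2bp1, and reads from it could be counted for either.

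Igf2bp2 (ENSMUSG00000033581, chr16:22059009-22163299) had 3885 and 3263 reads in the control and Usp5 inputs and 2214 and 1870 in the RIP libraries, or 136.1, 106.1, 62.1 and 59.0 CPM. Both precipitates lay below both inputs, 2.19-fold lower in control cells (log2 ratio -1.13, interval -1.21 to -1.06) and 1.80-fold lower in Usp5 guide cells (-0.85, interval -0.93 to -0.76). Igf2bp2 fell by 0.99 on the log2 scale over both guides, the largest fall of the 10 in this fit (adjusted p = 0.00469, edgeR). Over the settings its adjusted p ran from 0.000308 (DESeq2's Wald test) to 0.0156 (edgeR).

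Igf2bp3 (ENSMUSG00000029814, chr6:49085218-49215469) had 2535, 2558, 1745 and 1668 reads in the control input, Usp5 input, control RIP and Usp5 RIP, or 88.8, 83.1, 48.9 and 52.6 CPM. Its log2 ratios of RIP over input were -0.86 (interval -0.95 to -0.77) and -0.66 (-0.75 to -0.57) in control and Usp5 guide cells. It fell by 0.76 on the log2 scale over both guides (adjusted p = 0.0236, edgeR), but did not pass with library totals (log2 ratio -0.60, adjusted p = 0.0653). Over the settings its adjusted p ran from 0.00674 to 0.0653. The RefSeq span of Igf2bp3 overlaps 3 other genes (Malsu1, Gm18010 and D030074P21Rik), and how shared reads were counted is not given in the sources used here. No other member apart from Igf2bp1 overlaps an annotated gene.

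Hnrnpa2b1 (ENSMUSG00000004980, chr6:51460434-51470048), which encodes an abundant nuclear protein of pre-mRNA packaging and microRNA processing, had 46633 and 39848 reads in the control and Usp5 inputs and 26452 and 23406 in the RIP libraries. The levels of 1634.1, 1295.2, 741.5 and 738.6 CPM put the precipitates nearly level and both inputs above them. RIP over input was 2.20-fold lower in control cells (log2 ratio -1.14, interval -1.16 to -1.12) and 1.75-fold lower in Usp5 guide cells (-0.81, interval -0.83 to -0.79). Over both guides it fell by 0.98 on the log2 scale, with the smallest adjusted p of the members (0.000467, edgeR). For Hnrnpa2b1 the adjusted p over the settings ran from 1.18e-13 (DESeq2's Wald test) to 0.00698 (edgeR). Its high count narrows the counting interval, but the scatter between the inputs at its abundance was 749 times the binomial variance.

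Fmr1 (ENSMUSG00000000838, chrX:68678536-68717963), the gene of the fragile X protein FMRP, a translational repressor, had 7293, 5841, 5047 and 3931 reads in the control input, Usp5 input, control RIP and Usp5 RIP. These were 255.6, 189.9, 141.5 and 124.0 CPM, with both inputs above both precipitates. The log2 ratios of -0.85 (interval -0.91 to -0.80) and -0.61 (-0.67 to -0.56) in control and Usp5 guide cells gave a fall of 0.73 over both (adjusted p = 0.00731, edgeR). Over the settings the adjusted p of Fmr1 ran from 0.000555 (DESeq2's Wald test) to 0.0344 (edgeR).

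In control cells, 3 of 10 members (Ythdc2, Igf2bp2 and Hnrnpa2b1) were at least 2-fold lower in the RIP with an interval below no difference, beside 15.0% of all genes and 11% of the abundant ones. None of the 3 reached 2-fold with library totals, where their log2 ratios were -0.92, -0.95 and -0.96. That scaling moved the median of all genes from 0.028 to 0.21 in control cells and from 0.019 to 0.15 in Usp5 guide cells. In order of the ratio in control cells, from Hnrnpa2b1 through Igf2bp2, Ythdc2, Ythdc1 and Igf2bp3 to Fmr1, each counting interval overlapped the next. A gap followed between Fmr1 (upper bound -0.80) and Ythdf2 (lower bound -0.13). The intervals of Ythdf2, Ythdf3 and Igf2bp1 again overlapped in turn, and Ythdf1 (lower bound 0.73) stood apart from them. In both guides, all 10 members lay inside the middle 95% of genes of like abundance.

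**Figure D3:**
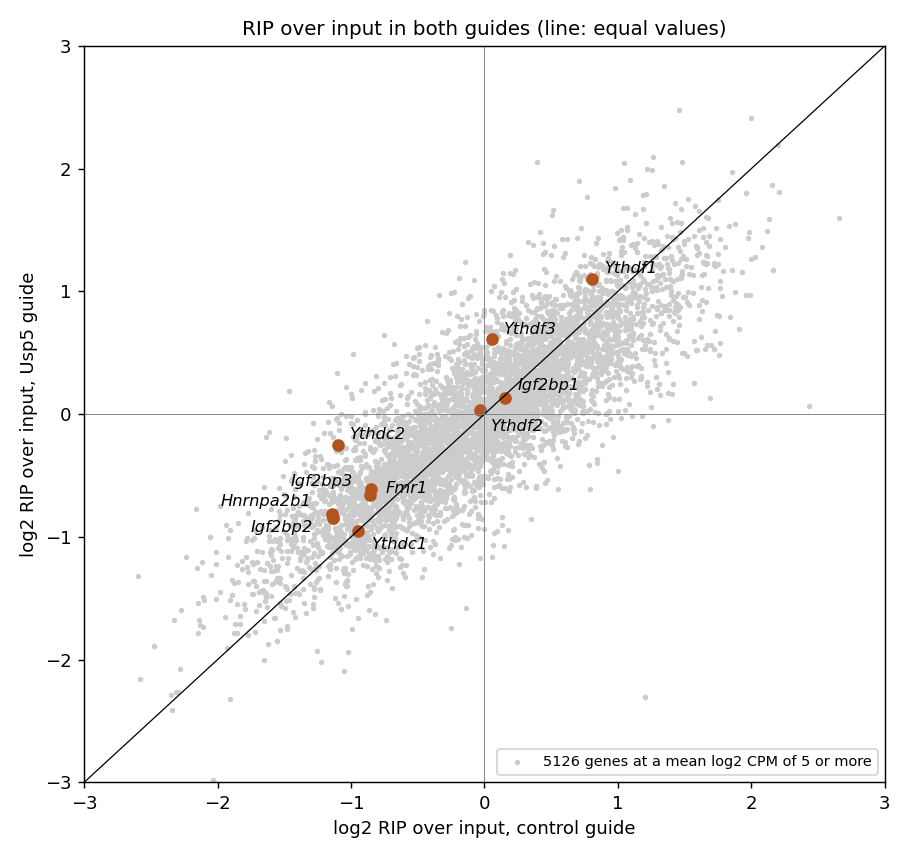
Log2 ratio of RIP over input in control guide cells (horizontal) against Usp5 guide cells (vertical) for the 10 members (labelled) and the 5126 genes at a mean log2 CPM of 5 or more (grey, 11 of them outside the axes). The line marks equal values. Ythdc2 (-1.10 and -0.25) and Ythdf3 (0.053 and 0.61) lie farthest above it among the members.

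Reads of related genes in 1 library share its depth and scaling, so the split of reads within a family needs no normalisation between libraries. Read numbers of different genes also depend on transcript length, so a share is set here only against the same gene's share in another library. Ythdf1 took 27.4% of the reads of the YTHDF genes in the control input (95% Clopper-Pearson interval 26.3 to 28.5) and 39.3% in the control RIP (38.4 to 40.3). In Usp5 guide cells the shares were 30.8% (29.6 to 32.1) and 41.4% (40.4 to 42.5). RIP over input of Ythdf1 exceeded that of Ythdf2 by 1.79-fold in control cells (log2 difference 0.84, interval 0.71 to 0.97) and by 2.1-fold in Usp5 guide cells (1.07, interval 0.93 to 1.21). It exceeded that of Ythdf3 by 1.69-fold (0.76, interval 0.65 to 0.86) and by 1.41-fold (0.49, interval 0.38 to 0.60). The order of Ythdf2 and Ythdf3 could not be told in control cells (-0.085, interval -0.21 to 0.036), while in Usp5 guide cells Ythdf2 was lower by 1.49-fold (-0.58, interval -0.71 to -0.44).

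Among the IGF2BP genes the share of Igf2bp1 went from 29.7% of reads in the control input (28.8 to 30.6) to 48.8% in the control RIP (47.7 to 49.9), and from 29.6% (28.7 to 30.6) to 43.9% (42.7 to 45.2) in Usp5 guide cells. RIP over input of Igf2bp1 exceeded that of Igf2bp2 by 2.44-fold in control and 1.97-fold in Usp5 guide cells, and that of Igf2bp3 by 2.02-fold and 1.73-fold. Igf2bp2 was below Igf2bp3 in both guides, by smaller log2 differences of -0.27 (interval -0.39 to -0.16) and -0.19 (-0.31 to -0.065). The YTHDC pair stood in opposite order in control and Usp5 guide cells. RIP over input of Ythdc1 was above that of Ythdc2 in control cells (log2 difference 0.15, interval 0.023 to 0.28) and below it in Usp5 guide cells (-0.71, interval -0.85 to -0.57). These intervals, and those of the YTHDF pairs, cover counting error in 4 counts each and no spread between cultures. They were not widened by the scatter between guides, so the orders given hold for counting error alone.

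**Figure D4:**
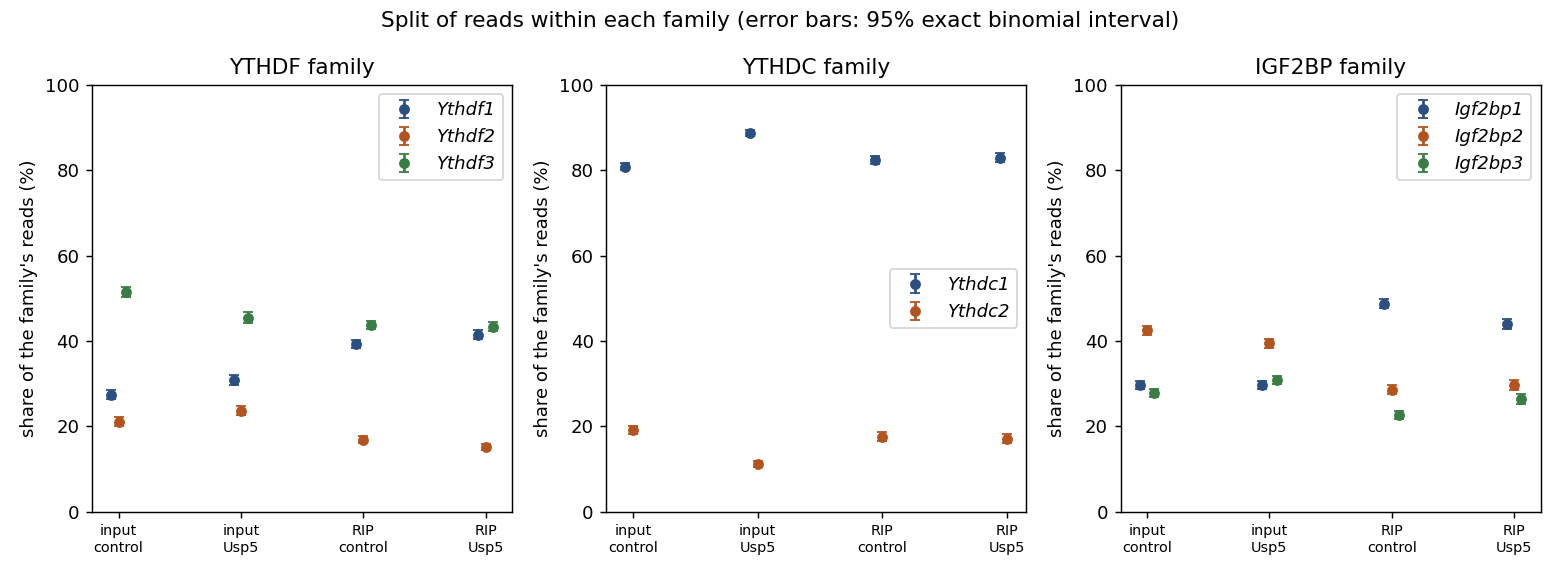
Share of the reads of the YTHDF, YTHDC and IGF2BP genes taken by each family member in the 4 libraries, in percent. Points are 1 library each and error bars are exact 95% binomial intervals. The Ythdf1 share goes from 27.4% and 30.8% in the inputs to 39.3% and 41.4% in the RIP libraries, the Igf2bp1 share from 29.7% and 29.6% to 48.8% and 43.9%, and the Ythdc2 share is lowest in the Usp5 input (11.2%).

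The Usp5 guide was then set against the control guide in each fraction, which asks whether transcript levels of the readers differ with Usp5. In the inputs the log2 ratio of Usp5 guide over control was below 0 for 9 of 10 members, beside 50.4% of all genes tested and 52.9% of the abundant ones. In bulk RNA, less transcript per cell and fewer cells with the transcript cannot be told apart. The members' median was -0.29, against -0.0061 for all genes and -0.025 for the abundant genes. The lowest values were those of Ythdc2 (-0.84, interval -0.95 to -0.72), or 1.78-fold lower, and Ythdf3 (-0.59, interval -0.66 to -0.51), or 1.50-fold lower. Fmr1 (-0.43), Igf2bp2 (-0.36) and Hnrnpa2b1 (-0.34) followed. Igf2bp1, Ythdf2 and Ythdf1 lay close together at -0.25, -0.24 and -0.24, with overlapping counting intervals. Igf2bp3 was near no difference at -0.095 (interval -0.18 to -0.016), and Ythdc1 alone was above it at 0.075 (0.029 to 0.12). No member reached 2-fold, a size reached with a counting interval excluding no difference by 24.5% of all genes but by 1.91% of the abundant genes. The number of members below 0 was also 9 with library totals, where their median was -0.23 and the interval of Igf2bp3 included no difference (-0.11 to 0.049).

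The scatter between the inputs was far larger than counting error. In genes with a mean log2 CPM between 0 and 6 the squared deviation between the inputs was 57.9 times the binomial variance, and between 66.3 and 749 times in the abundance classes of the members. With intervals widened by the value of each member's class, a choice made after seeing the data, 0 of 10 excluded no difference, the nearest being Fmr1 (-0.93 to 0.070) and Ythdc2 (-1.75 to 0.073). With the single value of 57.9, as planned, 3 of 10 lay below it, namely Fmr1 (-0.81 to -0.052), Hnrnpa2b1 (-0.48 to -0.19) and Ythdf3 (-1.16 to -0.020). These 3 have a mean log2 CPM of 7.42, 10.0 and 6.76, above the range that gave 57.9. The scatter of their own classes was larger, at 102, 749 and 80.4. The share of all genes with such intervals was not counted. All 10 input ratios lay inside the middle 95% of genes of like abundance, Ythdf3 and Ythdc2 both at the 5.9th percentile. The pair of inputs that gave this scatter is the pair compared, so any difference made by the guide is part of it.

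**Figure D5:**
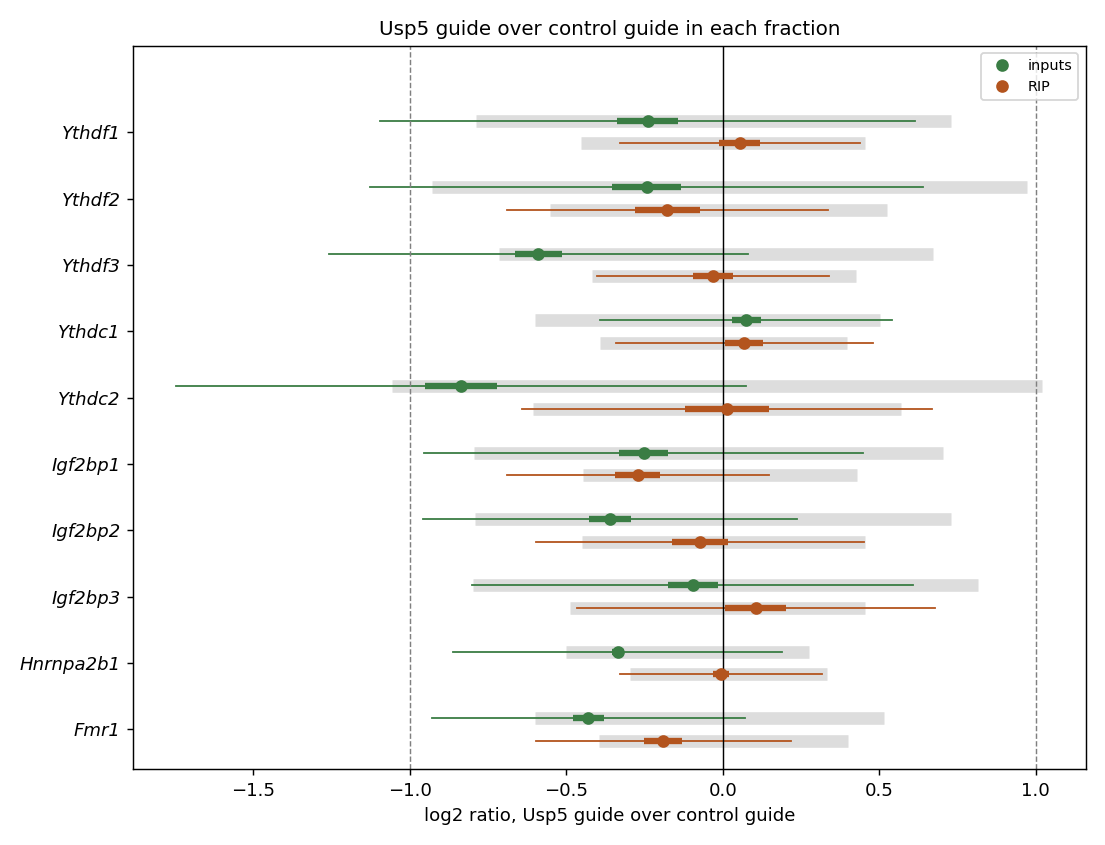
Log2 ratio of Usp5 guide over control guide for each gene in the inputs (green) and in the RIP libraries (orange). Points are ratios of 2 libraries, thick lines 95% counting intervals, thin lines intervals widened by the scatter between guides at that abundance, grey bars the middle 95% of genes of like abundance, and dashed lines mark 2-fold. Input ratios lie below 0 for 9 of 10 genes, RIP ratios between -0.27 and 0.11, and every widened interval includes 0.

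In the RIP libraries the members lay nearer to no difference, with log2 ratios of Usp5 guide over control from -0.27 to 0.11 and a median of -0.018 (all genes -0.0059). Igf2bp1 (-0.27, interval -0.34 to -0.20), Fmr1 (-0.19, interval -0.25 to -0.13) and Ythdf2 (-0.18, interval -0.28 to -0.072) had counting intervals below 0. Igf2bp3 (0.11, interval 0.0081 to 0.20) and Ythdc1 (0.069, interval 0.0084 to 0.13) had intervals just above 0. The other five, Ythdf1 (0.055), Ythdc2 (0.015), Hnrnpa2b1 (-0.0056), Ythdf3 (-0.031) and Igf2bp2 (-0.073), had intervals that included 0, though that of Ythdf1 lay just above 0 under the 3 other scalings (0.0019 to 0.13 with library totals). No member reached 2-fold, beside 9.20% of all genes and 0.117% of the abundant ones, and with either widened interval 0 of 10 excluded no difference. The share of all genes with counting intervals excluding 0 was not counted. Ythdc1 (0.075 in the inputs and 0.069 in the RIP libraries) and Igf2bp1 (-0.25 and -0.27) had nearly the same ratio in both fractions.

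Whether recovery with YTHDF1 differed between the guides was read from the ratio of the enrichments, which is by construction the RIP ratio less the input ratio. It was above 0 for 8 of 10 members, and for 10 of 10 with DESeq2 size factors or upper-quartile factors. Of all genes tested 50.3% were below 0, as were 48.7% of the abundant ones. The members' median log2 value was 0.26, beside -0.0055 for all genes and 0.011 for the abundant ones. Ythdc2 had the highest value at 0.85 (interval 0.68 to 1.02), or 1.80-fold, followed by Ythdf3 at 0.56 (0.46 to 0.66), or 1.47-fold. In both genes nearly all of it came from the inputs (-0.84 and -0.59) and little from the precipitates (0.015 and -0.031). Hnrnpa2b1 (0.33), Ythdf1 (0.29), Igf2bp2 (0.29), Fmr1 (0.24) and Igf2bp3 (0.20) had intervals above 0. Ythdf2 (0.067, interval -0.084 to 0.22), Ythdc1 (-0.0060, interval -0.082 to 0.070) and Igf2bp1 (-0.019, interval -0.12 to 0.087) had intervals that included 0. The share of all genes with counting intervals above 0 was not counted. No member reached 2-fold, beside 27.1% of all genes and 2.61% of the abundant ones. With intervals widened by class no value excluded 0, that of Ythdc2 running from -0.27 to 1.97. With the single planned scatter that of Hnrnpa2b1 alone did (0.15 to 0.51). Hnrnpa2b1 lies above the abundance range that gave this scatter, and its interval widened by class ran from -0.29 to 0.95. With 1 lysate per guide, these differences have no replicate check.

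The guides were also tested over both fractions together, with fraction as a block in the same edgeR fit, a test added after seeing the data. Input and precipitate of a guide come from 1 lysate, so they are not replicates of the guide, and the p-values do not cover the spread between cultures. Of the 10 members, 0 passed at an adjusted p under 0.05 and 0 had an unadjusted p under 0.05, beside 0.0232% of all genes and 0.0390% of the abundant ones called in either direction. The log2 ratio of Usp5 guide over control was below 0 for 8 of 10, from -0.41 for Ythdc2 to 0.072 for Ythdc1, with Fmr1 and Ythdf3 at -0.31. The lowest adjusted p of the members was 0.942 (edgeR, 0.936 to 0.946 over the 4 scalings).

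Ythdf1 was compared with the 3193 genes of a mean level within 2-fold of its own, by the Euclidean distance over its 4 log2 ratios (RIP over input in each guide and Usp5 guide over control in each fraction). The ratios come from 4 libraries and are not independent. The nearest were ENSMUSG00000054199 (distance 0.103, with 2230, 2068, 5056 and 4433 reads in the control input, Usp5 input, control RIP and Usp5 RIP) and ENSMUSG00000039458 (distance 0.121, with 2407, 2137, 4910 and 4684 reads). Among the other members the nearest was Ythdf3, at 0.972, and the farthest Igf2bp2, at 2.76.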

How the data were processed

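Input and YTHDF1 precipitate were sequenced from Hepa 1-6 cells with a control guide or a Usp5 guide. Per the labels' protocols, 10% of the lysate served as input, ribosomal RNA was removed and libraries were amplified by PCR. The authors deposited raw read counts per Ensembl gene ID, made with HISAT2 2.1.0 and featureCounts 1.6.3 on mm10, per the submitters' processing notes. The handling of strand and of multiply mapped or duplicate reads was not given in the sources used here. The intervals cover counting error of reads only. If PCR copies were counted as separate reads, the intervals understate the error in counting RNA molecules.

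The 10 genes came as a list with symbols, and all are named, with the 2 IDs nearest to Ythdf1. The count table and the reference (49997 genes, GRCm38.p6) pair 0 IDs with names, so Usp5, markers and other m6A genes (9 lists, 61 symbols, 0 paired) were not analysed here. Genes and lists were chosen with earlier results of these data known.

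TMM factors were 0.926 (control input), 0.969 (Usp5 input), 1.05 (control RIP) and 1.06 (Usp5 RIP). The 12920 genes averaging at least 1 CPM were tested. Log2 ratios had 0.5 counts added, with Clopper-Pearson 95% intervals on the split of reads. The size rule asked for 2-fold and an interval excluding no difference. Widened intervals divide counts by the scatter between guides (squared deviation over binomial variance, as 1 value or by class of log2 CPM). RIP was tested against input with edgeR 4.0.16 (R 4.3.3, quasi-likelihood, guide as a block, 1 residual degree of freedom, Benjamini-Hochberg over all genes tested), with DESeq2 1.42.0 as an alternative. The code was tested on simulated data. Guides have 1 library per fraction. Their difference was tested only over both fractions, with fraction as a block in the same fit, added after seeing the data.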

Additional observations from a re-analysis of the deposited data

Results flagged for a closer look

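Ythdf1, Ythdc2, Igf2bp3 and Ythdf2 had log2 ratios of opposite sign in groups compared under the same contrast, and with 1 library per group the difference was not tested. The share of all genes with such a change of sign was not counted. Usp5 guide over control was below 0 in the inputs and above 0 in the RIP libraries for Ythdf1 (-0.24 and 0.055), Ythdc2 (-0.84 and 0.015) and Igf2bp3 (-0.095 and 0.11). RIP over input was below 0 in control and above 0 in Usp5 guide cells for Ythdf2 (-0.032 and 0.035). On TMM sizes, at least 1 of the 2 counting intervals included 0 for Ythdf1, Ythdc2 and Ythdf2, and for Igf2bp3 both excluded it narrowly (-0.18 to -0.016 and 0.0081 to 0.20). With library totals the RIP interval of Ythdf1 excluded 0 (0.0019 to 0.13) and the input interval of Igf2bp3 included it (-0.11 to 0.049). With either interval widened by the scatter between guides, all of these values included 0.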

How the results depend on the processing

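Intervals widened by abundance class and the test between guides were chosen after seeing the data, and the other settings given here were planned. The splits within families and the ranges of genes of like abundance were not among the planned comparisons. Library totals took the members called lower in control RIP over input from 3 to 0, and Igf2bp3 below the threshold over both guides (5 of 10 members passed, adjusted p = 0.0653 for Igf2bp3, edgeR). With them the higher share of all genes called went from 55.0% to 66.4% in control cells and from 47.5% to 63.5% over both guides, where 969 genes were called lower, beside 1461. Other scalings, filters, added counts and intervals left the members called in each comparison unchanged in number. With guide as a replicate block, edgeR called 6 members, as did DESeq2's Wald test and edgeR with no replicate block. Counts over all genes moved by over 1.5 times, in the order control RIP over input, Usp5 RIP over input, inputs and RIP libraries (4319, 3829, 3165 and 1188). With at least 10 reads they were 7478, 6990, 5616 and 4180, with a mean of 5 CPM 2594, 2094, 1288 and 224, with widened intervals 2535, 2175, 1161 and 322, and by class 2508, 2160, 1107 and 359. The ratio of enrichments went from 3497 to 1527 (5 CPM), 1070 and 1010. The filters at 10 reads and 5 CPM also changed which genes were tested, so their counts are not over the same genes. Leaving out 1 guide leaves the ratio of 2 libraries given for the other, with no test. With fraction as the block, the test between guides called 0 members under each of the 4 scalings.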
